A study of Peniophora incarnata with 12 samples.

Results

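RIM101 (A04452), described in the deposited annotation as the pH-response transcription factor pacC/RIM101, and cta3 (A03378), described as calcium-transporting ATPase 3, are 2 of the 16059 genes measured in the white-rot basidiomycete Peniophora incarnata. Both were chosen by gene ID with their levels on the 4 growth materials already known, so their levels are given as a description and without a test. The mycelium was of the wild type strain T-7. It was grown for 30 days at 28 °C, in the dark and without shaking, at a relative humidity of 75%. The materials were powders of poplar wood (PW, a hardwood), of Chinese fir wood (FW, a softwood) and of rice straw (RS, a grass), each sieved at 60 mesh, and PDA, a rich agar of potato extract and dextrose, as the control. Each group had 3 libraries labelled as biological replicates, and each class of plant was represented by a single material. Levels are FPKM, reads scaled to coding length and to the reads of the library.

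The pathway behind RIM101 is known from Aspergillus nidulans, where the factor is called PacC, and from Saccharomyces cerevisiae. Sensors in the plasma membrane report a neutral or alkaline surrounding. The proteins palA and palC and the endosomal sorting complexes (ESCRT) then assemble a platform on which the calpain-like protease palB cuts the factor. This cut is a step towards the active form, so the activity of the protein is not read from its RNA. Cta3 belongs to the P-type ATPases, pumps that move ions or lipids across membranes at the cost of ATP. In Schizosaccharomyces pombe, from which the name comes, it is a pump of the plasma membrane whose RNA rises under salt stress. The terms deposited with A03378 name calcium transport as well as potassium export across the plasma membrane. In S. cerevisiae the sodium pump ENA1, a P-type ATPase, is induced at alkaline pH in part through Rim101. A role of either gene in P. incarnata is not given by the files, and no sequence of either was used here.

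The libraries held 23398461 to 31132066 reads, worked back from the FPKM values. The poplar wood libraries differed most among themselves, with a median SD per gene of 0.46 on the log2 scale, against 0.15 to 0.19 in the other groups. Chinese fir wood replicate 1, rice straw replicate 3 and PDA replicate 2 lay close to a mix of the other libraries of their groups. Their chi-square per gene against such a mix was 4.82 to 7.58, as opposed to 28.1 to 56.3 for the remaining FW, RS and PDA libraries. Whether these 3 intermediate libraries are independent replicates was not tested. The differences of RIM101 and cta3 from PDA, and many of the list counts and calls, are therefore also given without them. Leaving them out leaves fewer libraries in these groups, so a call can be lost although the log2 change hardly moves.

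RIM101 was low on both woods and high on rice straw and PDA. On poplar wood it stood at 60.1, 148 and 60.3 FPKM in replicates 1, 2 and 3. On Chinese fir wood it stood at 109, 103 and 120.4 FPKM. Replicate 2 was the high library on poplar wood, and the ranges of the woods overlapped.

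On rice straw RIM101 stood at 969.5, 922 and 907 FPKM in replicates 1, 2 and 3. On PDA it reached 1584, 1499 and 1418 FPKM. Every rice straw library thus lay above every wood library and below every PDA library. The group means were 89.5 ± 50.8 FPKM on poplar wood, 111 ± 8.70 on FW, 933 ± 32.7 on RS and 1501 ± 82.7 on PDA (SD, n = 3 each).

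The mean of RIM101 on PDA was 16.8-fold that on poplar wood and 13.5-fold that on Chinese fir wood. Differences of log2(FPKM + 1) were -4.19 for poplar wood against PDA and -3.75 for Chinese fir wood against PDA (SE 0.29 each). For rice straw against PDA the difference was -0.68 (SE 0.29), a mean 1.61-fold higher on PDA. These SEs rest on 1 spread shared by the 4 groups, which for RIM101 was widest on poplar wood. Its SD on the log2 scale was 0.74 there, 0.11 on FW, 0.05 on RS and 0.08 on PDA. Without the intermediate libraries the 3 differences from PDA were -4.19, -3.74 and -0.66. After median-of-ratios scaling, which sets the typical gene equal across libraries, they were -3.96, -3.16 and -0.39. The libraries on rice straw still lay below those on PDA, at 873 to 1052 against 1162 to 1323 scaled FPKM. The 3 comparisons share the PDA libraries and are set side by side only. The RNA came from whole mycelium, so fewer expressing hyphae and less RNA per hypha cannot be told apart.

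As a level per coding length, RIM101 was one of the most abundant transcripts on PDA. It ranked 29, 32 and 44 among the 16059 genes in PDA replicates 1, 2 and 3. On rice straw it ranked 109 to 128. On FW it ranked 1085 to 1168 and on poplar wood 942 to 2389, so even its lowest level stood above that of 85.1% of all genes.

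cta3 divided the materials in the same way but over a far wider span. On Chinese fir wood it stood at 1.13, 2.10 and 1.01 FPKM in replicates 1, 2 and 3, which rested on 112, 188 and 77 reads. On poplar wood it stood at 3.48, 7.67 and 3.01 FPKM, from 285, 570 and 244 reads. All Chinese fir wood libraries lay below all poplar wood libraries, by 1.43-fold at the closest.

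On rice straw cta3 stood at 383, 253 and 299 FPKM in replicates 1, 2 and 3. The PDA libraries held 232, 178 and 144 FPKM of it. Rice straw lay above PDA without overlap, but the closest libraries of these groups differed by only 1.09-fold. The 95% exact Poisson intervals, which cover counting error only, were 0.932 to 1.36 FPKM for Chinese fir wood replicate 1, 1.81 to 2.42 for replicate 2 and 0.799 to 1.27 for replicate 3, so replicate 2 stood above the others by more than counting error. The poplar wood intervals ran from 2.64 FPKM at the lowest to 8.32 at the highest and, as deposited, did not reach those of Chinese fir wood. After median-of-ratios scaling the woods still did not overlap in level, but the lowest poplar wood library (2.74 scaled FPKM) and the highest FW library (2.68) were nearly equal, and their counting intervals overlapped (2.40 to 3.10 and 2.31 to 3.09).

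The group means of cta3 were 4.72 ± 2.57 FPKM on poplar wood, 1.42 ± 0.597 on Chinese fir wood, 312 ± 65.8 on rice straw and 185 ± 44.3 on PDA (SD, n = 3 each). The mean on rice straw was 220.3-fold that on Chinese fir wood and 66.1-fold that on poplar wood. The mean on PDA was 130.5-fold and 39.1-fold those of the same woods. On the log2(FPKM + 1) scale, which understates the change of a gene this low, Chinese fir wood differed from PDA by -6.26 and poplar wood by -5.08 (SE 0.31 each). Rice straw differed from PDA by 0.76 (SE 0.31). Without the intermediate libraries the differences from PDA were -6.20 for Chinese fir wood, -5.10 for poplar wood and 0.76 for rice straw. After scaling, the rice straw libraries held 239.5 to 416 and the PDA libraries 118 to 194 scaled FPKM.

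cta3 ranked 346 to 568 among all genes on rice straw and 609 to 1015 on PDA. It ranked 8435 to 10846 on poplar wood and 11070 to 12629 on Chinese fir wood. It thus moved from among the more abundant transcripts to below the middle of the list.

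**Figure D1:**
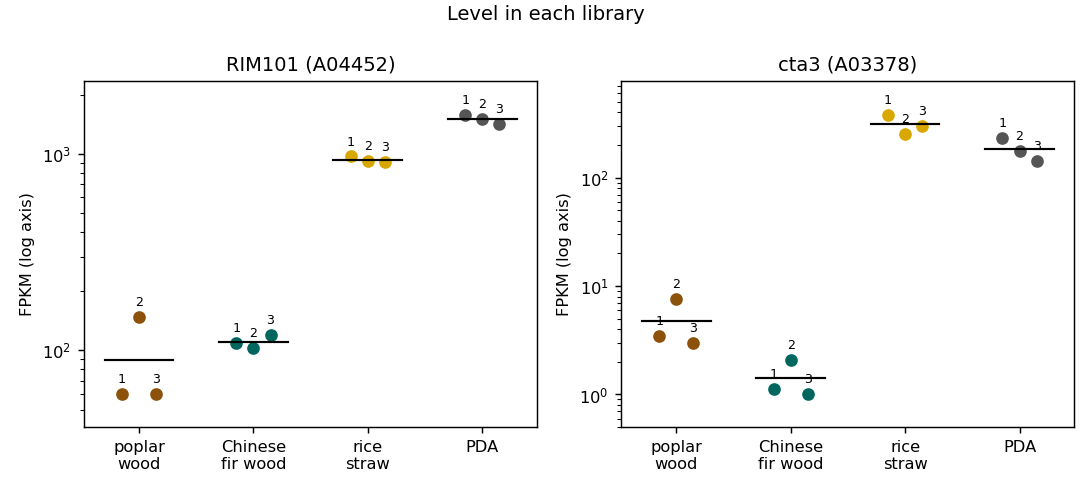
FPKM of RIM101 (left) and cta3 (right) in each library on a log axis, by growth material. Points are libraries marked with their replicate number and lines are group means. RIM101 falls from a mean of 1501 on PDA to 89.5 on poplar wood, and cta3 from 312 on rice straw to 1.42 on Chinese fir wood.

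The order of the levels was not the same for the 2 genes. RIM101 went from PDA to rice straw to the woods, and poplar wood and Chinese fir wood could not be ordered because their libraries overlapped. cta3 went from rice straw to PDA to poplar wood to Chinese fir wood, with no overlap between neighbours in FPKM, although after scaling the closest libraries of the woods did not differ beyond counting error. The level of cta3 as a percentage of that of RIM101, a ratio within a library that no scaling between libraries changes, was 39.5, 27.4 and 33.0% on rice straw (replicates 1, 2 and 3). On PDA it was 14.6, 11.9 and 10.2%. On poplar wood it was 5.78, 5.17 and 4.99%. On FW it was 1.04, 2.03 and 0.841%. The 4 materials did not overlap in this ratio.

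Both genes were highest in replicate 2 of poplar wood. There RIM101 stood 2.47-fold and 2.46-fold above replicates 1 and 3, and cta3 2.21-fold and 2.55-fold. Of the 13974 genes that reached 1 FPKM in at least 3 libraries, 417 (2.98%) were at least 2-fold higher in that library than in both other poplar wood libraries. The ratio of cta3 to RIM101 was close to the same in all 3 poplar wood libraries, at 4.99 to 5.78%.

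**Figure D2:**
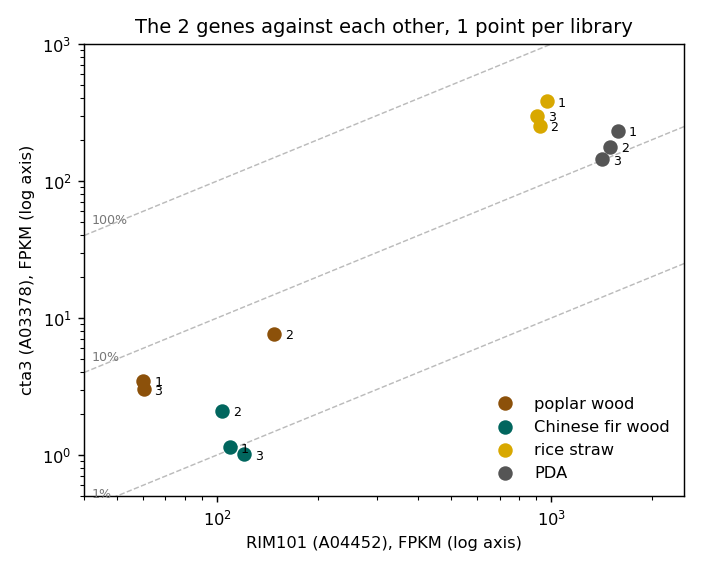
FPKM of cta3 against FPKM of RIM101, both on log axes, 1 point per library with its replicate number, coloured by growth material. Dashed lines mark cta3 at 1%, 10% and 100% of RIM101. The 6 wood libraries lie at the lower left between 0.841% and 5.78%, and the rice straw and PDA libraries at the upper right between 10.2% and 39.5%.

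All 6 wood libraries lay below all 6 rice straw and PDA libraries in 1381 of the 13974 genes (9.88%), and above them in 368 (2.63%). This grouping was chosen after the levels of the 2 genes had been seen. cta3 had the widest such gap of all these genes, 4.06 on the log2 scale between its highest wood library and its lowest rice straw or PDA library. RIM101 ranked 12 with a gap of 2.60, which is 6.12-fold in FPKM. By the range of its group means cta3 ranked 13 and RIM101 262 among the same genes. A gap of at least 2 was found in 30 genes and of at least 1 in 163.

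A second gene carried the description of RIM101. This gene, PACC (A11246), stood at 10.01, 8.57 and 16.8 FPKM on poplar wood, and at 8.12, 9.93 and 6.62 on Chinese fir wood (replicates 1, 2 and 3). On RS it stood at 17.2, 17.0 and 16.1 FPKM, and on PDA at 23.8, 21.5 and 19.4. It was thus far less abundant than RIM101 on every material, and poplar wood replicate 3 reached into the range of rice straw. It fell on Chinese fir wood by 1.30 on the log2 scale (SE 0.23, limma adjusted p = 0.000771), a call that was lost after median-of-ratios scaling (-0.75, adjusted p = 0.0225). On poplar wood its log2 change was -0.87 (adjusted p = 0.0106) and on rice straw -0.34 (adjusted p = 0.276), neither of which reached the threshold. A gene was called at an adjusted p under 0.05 and an absolute log2 change of at least 1, with the Benjamini-Hochberg adjustment over all 13974 genes.

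The palC gene (A06427, symbol CNBE3350), whose product binds ESCRT-III in A. nidulans, did not follow RIM101. It stood at 51.2, 56.2 and 41.8 FPKM on poplar wood and at 215, 152 and 261 on Chinese fir wood. On rice straw it stood at 464, 348 and 401 FPKM, and on PDA at 168, 165 and 163. All poplar wood libraries lay below all PDA libraries and all rice straw libraries above them, while Chinese fir wood spanned the PDA values. It fell on poplar wood by 1.72 (SE 0.21, limma adjusted p = 7.23e-05) and rose on rice straw by 1.28 (SE 0.21, adjusted p = 0.00074). On Chinese fir wood the log2 change was 0.31 (adjusted p = 0.247).

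RIM20 (A19108), the palA gene, whose product binds both the factor and ESCRT-III, had 15.7 ± 2.64 FPKM on PDA, 7.20 ± 2.14 on poplar wood, 7.23 ± 0.179 on FW and 9.91 ± 1.48 on RS (SD, n = 3 each). It fell on both woods by 1.04 and 1.01 (SE 0.21 each, limma adjusted p = 0.00222 and 0.00228). Both calls were lost after median-of-ratios scaling (-0.82 and -0.47), with a pseudocount of 5 and when PDA replicate 1 was left out, and the call on Chinese fir wood also without the intermediate libraries (adjusted p = 0.0725). The call on poplar wood was also lost without poplar wood replicate 2 or 3, and that on Chinese fir wood without Chinese fir wood replicate 1 or PDA replicate 2. A pair of genes described as the protease palB/RIM13 (A06807 and A08925) stood at 4.53 to 9.72 FPKM as group means, and neither was called on any material. The 2 carry the same description, and whether reads were shared between such copies was not tested.

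The products of the ESCRT genes sort membrane proteins at endosomes and serve as the platform of pH signalling in A. nidulans and S. cerevisiae. Of the 16 tested ESCRT genes, 5 fell and 0 rose on poplar wood. On FW 6 fell and 0 rose, and on rice straw 1 fell and 0 rose. Together with the 5 other pH signalling genes this made 7 lower and 0 higher of 21 on poplar wood, 8 lower and 0 higher on Chinese fir wood, and 1 lower and 1 higher on rice straw. Over all genes 17.1% were called lower and 8.3% higher on poplar wood, 24.5% and 5.91% on FW, and 14.1% and 6.81% on RS. The median log2 change of the 21 genes was -0.70 on poplar wood, -0.92 on FW and -0.57 on RS, beside -0.18, -0.51 and -0.25 over all genes.

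The calls of this list depended on scaling. Median-of-ratios scaling moved the median of all genes to between -0.02 and 0.02, and it left 3 genes lower on poplar wood, 0 on FW and 1 on RS, with list medians of -0.50, -0.35 and -0.29. Over all genes this scaling changed the split from 1160 higher and 2396 lower to 1576 and 1764 on poplar wood, from 826 and 3430 to 1637 and 1533 on Chinese fir wood, and from 952 and 1971 to 1397 and 1153 on rice straw. Without the intermediate libraries 5 of the 21 genes fell on poplar wood, 3 on FW and 0 on RS.

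The most abundant ESCRT gene, did2 (A08287), had 215 ± 3.24 FPKM on PDA and 112 ± 1.47 on Chinese fir wood (SD, n = 3 each), a log2 change of -0.93 that did not reach the fold threshold. The ESCRT-III gene vps24 (A08009) fell by 1.45 on Chinese fir wood, from 87.3 ± 4.76 to 31.7 ± 6.20 FPKM (SE 0.34, limma adjusted p = 0.00411). VPS28 (A05518), of ESCRT-I, fell by 1.46 on poplar wood from 11.8 ± 3.02 to 4.04 ± 2.43 FPKM (SE 0.38, adjusted p = 0.00965), with poplar wood replicate 1 at 1.32, replicate 2 at 4.77 and replicate 3 at 6.01. The call of vps24 on Chinese fir wood was lost after scaling and without the intermediate libraries, and that of VPS28 on poplar wood without poplar wood replicate 1, with a pseudocount of 5 and without the intermediate libraries. Another VPS28 gene, A10215, fell on poplar wood by 1.35 from 21.3 ± 1.32 to 7.81 ± 1.68 FPKM (SE 0.19, limma adjusted p = 0.000174), also after scaling. vps20 (A04052), another ESCRT-III gene, was the 1 gene that fell on rice straw, by 1.40 from 27.5 ± 2.08 to 10.2 ± 3.60 FPKM (limma adjusted p = 0.00787). Without the intermediate libraries its change was -1.56 (adjusted p = 0.0764). VPS4 (A04279), the ATPase that takes ESCRT-III apart, and both hse1 genes (A14964 and A15260) were the 3 members whose 6 wood libraries all lay below the rice straw and PDA libraries, as in 9.88% of all genes. Their gaps were at most 0.12 on the log2 scale, against 2.60 for RIM101.

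**Figure D3:**
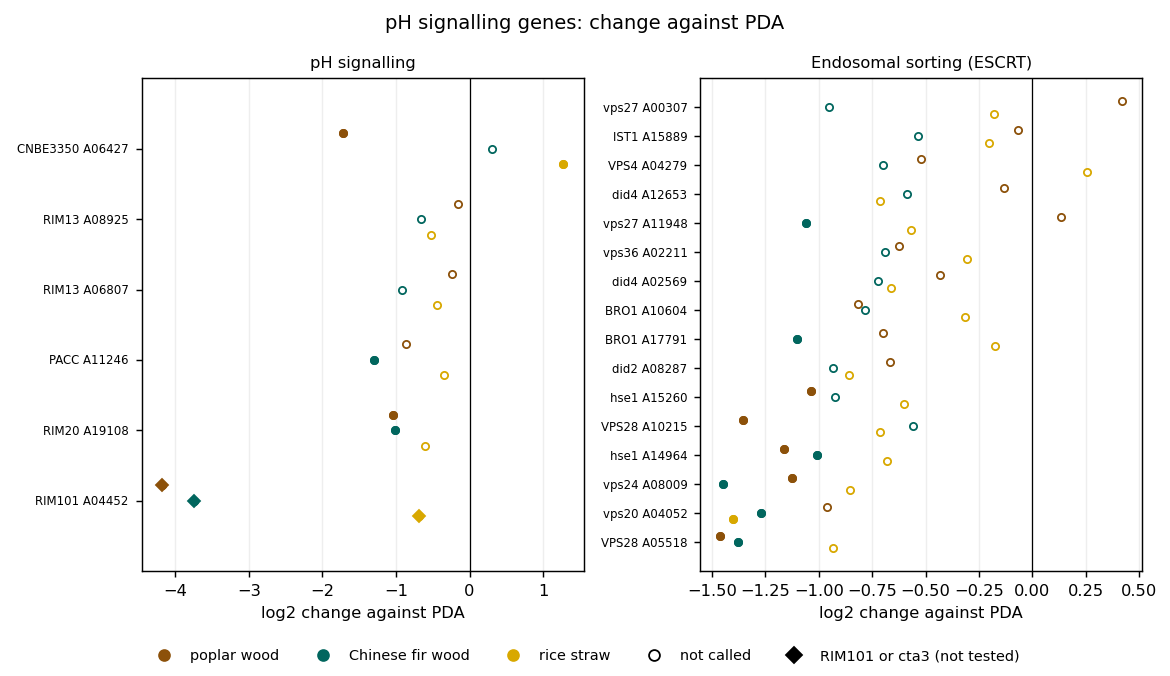
Log2 change of each tested gene of pH signalling (left) and ESCRT (right) against PDA, on the log2(FPKM + 1) scale, for the 3 materials. Filled circles are called genes, open circles genes that were not called, and diamonds RIM101, which was not tested. The diamonds of the woods, at -4.19 and -3.75, lie farther from 0 than every circle, and palC on rice straw is the 1 filled circle above 0.

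Of the 29 tested genes in the list of P-type ATPases apart from cta3, 5 rose and 0 fell on poplar wood, 3 rose and 3 fell on Chinese fir wood, and 0 rose and 3 fell on rice straw. Over all genes 8.3% rose and 17.1% fell on PW, 5.91% and 24.5% on FW, and 6.81% and 14.1% on RS. After scaling 5 of the 29 rose and 0 fell on PW, 4 rose and 1 fell on FW, and 1 rose and 3 fell on RS. That list also took in 6 MSP1 genes, which are named as helix translocases of the mitochondrial outer membrane and are not P-type pumps. They made up 3 of the 5 that rose on poplar wood, all 3 that rose on Chinese fir wood, and 1 of the 3 that fell on FW and of the 3 that fell on RS. The most abundant pump was PMA1 (A17322), the proton pump that energises the fungal plasma membrane. It stood at 1440.3, 1359.8 and 871 FPKM on poplar wood and at 383, 358 and 407 on Chinese fir wood. On RS it stood at 466, 396 and 406 FPKM, and on PDA at 1043, 1106 and 1148. Unlike cta3, it was low on Chinese fir wood and rice straw together, and poplar wood spanned the PDA values.

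PMA1 fell by 1.52 on FW and by 1.38 on RS (SE 0.20 each, limma adjusted p = 8.5e-05 and 0.000289). The first of these calls was lost after scaling, where the change was -0.93. PCA1 (A01325), named after a yeast heavy metal pump, fell on rice straw by 1.72 from 155 ± 2.34 to 46.7 ± 6.64 FPKM (SE 0.33, limma adjusted p = 0.00179). That call was lost without the intermediate libraries, at a change of -1.67 (adjusted p = 0.0577). PCA1 also fell on Chinese fir wood, by 1.12 (adjusted p = 0.0139). This second call was lost after scaling, without FW replicate 3 and without the intermediate libraries (a change of -1.15). PMR1 (A06248), a calcium pump by description and of low level, was the 1 gene of the 29 whose wood libraries all lay below the others. Among all genes tested 9.88% had this course, so 1 of 29 is not more than that share. The means of A06248 were 0.764 FPKM on poplar wood, 0.914 on Chinese fir wood, 1.87 on rice straw and 2.13 on PDA, and it was not called. Other tested genes named PMR1 did not share this course. A17727 rose on poplar wood by 1.28 (SE 0.31, limma adjusted p = 0.0065), also after scaling. A17269 had means of 59.6 FPKM on PW, 36.2 on FW, 67.2 on RS and 46.3 on PDA, and was not called.

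Of the 24 tested genes of calcium transport and signalling, 2 rose and 6 fell on poplar wood, 3 rose and 3 fell on Chinese fir wood, and 4 rose and 2 fell on rice straw. The shares over all genes were 8.3% higher and 17.1% lower on PW, 5.91% and 24.5% on FW, and 6.81% and 14.1% on RS. Without the intermediate libraries the counts were 2 and 3, 3 and 2, and 1 and 0, and after scaling 2 and 2, 3 and 2, and 7 and 0. Over both sublists, 53 genes, the median log2 change was -0.01 on poplar wood, -0.14 on FW and -0.04 on RS, beside -0.18, -0.51 and -0.25 over all genes. After scaling these list medians turned to 0.21, 0.32 and 0.24, beside 0.02, -0.02 and -0.01 over all genes.

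The gene of this list with the widest gap between the woods and the other materials was a vacuolar calcium ion transporter, VCX1 (A11042), an exchanger that loads the vacuole with calcium in S. cerevisiae. It stood at 4.46, 5.64 and 5.01 FPKM on poplar wood and at 3.52, 4.18 and 3.41 on Chinese fir wood. On rice straw it stood at 21.2, 17.4 and 18.3 FPKM, and on PDA at 24.6, 24.3 and 25.1. The 6 wood libraries lay below all the others with a gap of 1.47 on the log2 scale. It fell on poplar wood by 2.09 and on Chinese fir wood by 2.45 (SE 0.16 each, limma adjusted p = 2.9e-06 and 6.15e-07), also after scaling and without the intermediate libraries. On RS its log2 change was -0.37 (adjusted p = 0.0963). A second VCX1 gene, A16517, went the other way on poplar wood, at 2.45, 2.59 and 7.61 FPKM against 0.175, 0.510 and 0.927 on PDA. It rose there by 1.65 (SE 0.31, limma adjusted p = 0.00137), by 0.69 and without a call at a pseudocount of 5. The files give 7 genes under this description, of which 2 rose and 2 fell on poplar wood, and 0 rose and 2 fell on Chinese fir wood.

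CRZ1 (A01530), the transcription factor that calcineurin activates in S. cerevisiae, was highest on rice straw, as cta3 was. It stood at 1633, 1217 and 1342 FPKM there and at 479, 520.4 and 560.0 on PDA. On poplar wood it stood at 231, 231 and 217 FPKM, and on Chinese fir wood at 471, 391 and 568. It rose on rice straw by 1.42 (SE 0.18, limma adjusted p = 0.000132) and fell on poplar wood by 1.19 (SE 0.18, adjusted p = 0.000338), the latter a change of -0.97 after scaling. On Chinese fir wood, where cta3 was lowest, the log2 change of CRZ1 was -0.14 (limma adjusted p = 0.552), which turned to 0.46 after scaling (adjusted p = 0.102), and it was called in neither.

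The kinase gene cmkB (A10564), the most abundant of the calcium genes, and 1 gene of the calcineurin catalytic subunit, CNA1 (A14337), both rose on FW and on RS. cmkB stood at 3076 ± 238 FPKM on FW and 2779 ± 513 on RS, against 1060.0 ± 52.4 on PDA (SD, n = 3 each), log2 changes of 1.53 and 1.37 (SE 0.27 each, limma adjusted p = 0.000665 and 0.0021). This CNA1 gene rose by 1.93 to 152 ± 11.6 FPKM on Chinese fir wood and by 1.25 on rice straw (adjusted p = 0.000123 and 0.00338). Both rice straw calls were lost without the intermediate libraries (adjusted p = 0.068 and 0.0798). A kinase gene with no symbol (A11842), described as dependent on calcium and calmodulin, fell on rice straw by 1.21 (limma adjusted p = 0.00359, and 0.0803 without the intermediate libraries), and its change was -0.93 after scaling.

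**Figure D4:**
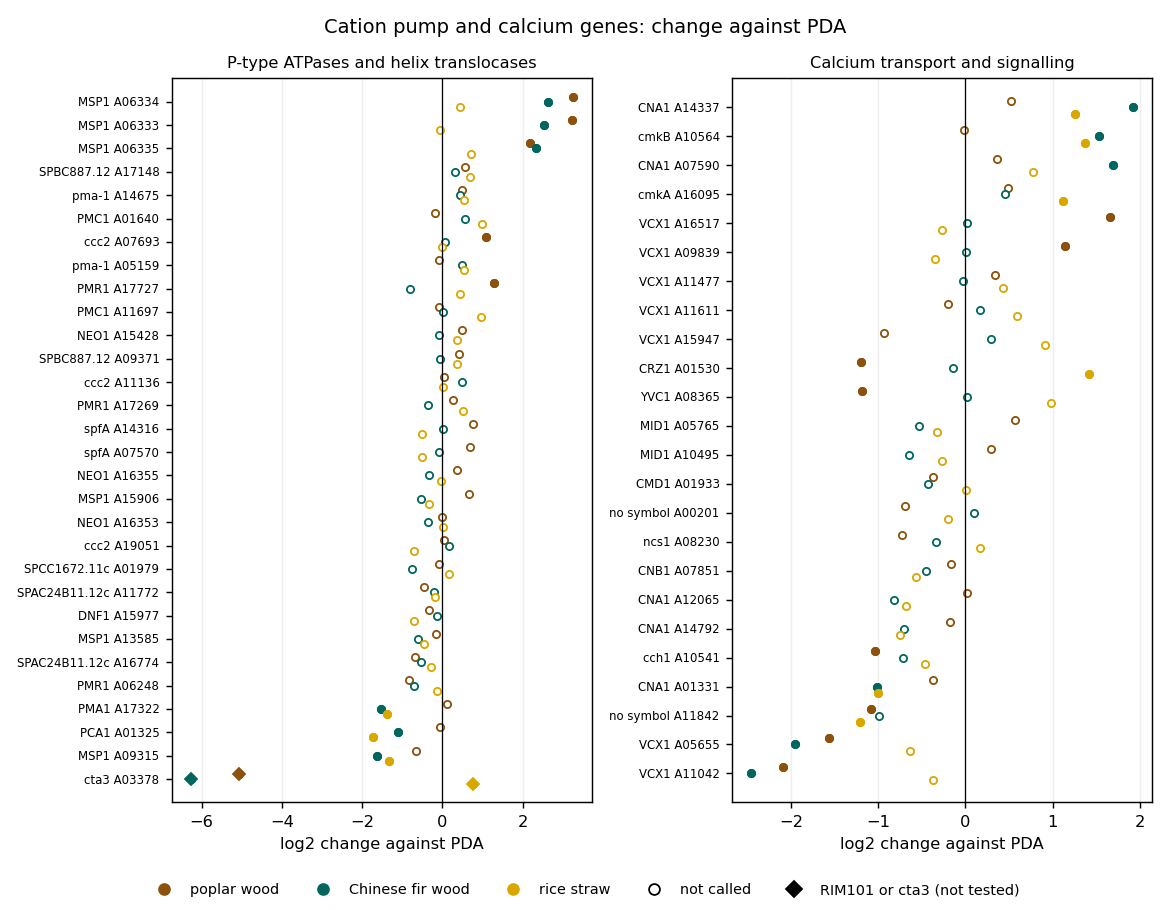
Log2 change of each tested gene of the list of P-type ATPases, with the MSP1 translocases (left), and of calcium transport and signalling (right) against PDA, on the log2(FPKM + 1) scale. Filled circles are called genes, open circles genes that were not called, and diamonds cta3, which was not tested. cta3 at -6.26 and -5.08 on the woods lies far outside the other pumps, whose lowest value is -1.72, while VCX1 (A11042) is the lowest calcium gene at -2.45.

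Of the 33 tested genes of proton and alkali cation transport, 1 rose and 5 fell on poplar wood, 0 rose and 6 fell on Chinese fir wood, and 0 rose and 1 fell on rice straw. These counts stand beside 8.3% higher and 17.1% lower on PW over all genes, 5.91% and 24.5% on FW, and 6.81% and 14.1% on RS, so the shares that fell on the woods were near or under that background. The median log2 change of the 33 genes was -0.07, -0.29 and -0.14, and it turned to 0.16, 0.29 and 0.10 after scaling. All 5 that fell on poplar wood were among the 20 genes of the vacuolar proton ATPase, which acidifies the vacuole, and 2 of these genes fell on Chinese fir wood. The number of the 33 that fell on poplar wood was 0 without poplar wood replicate 1, 10 without poplar wood replicate 3, 2 without PDA replicate 1 and 0 without the intermediate libraries. Subunit H, vma13 (A12794), fell on poplar wood by 1.35 (SE 0.35, limma adjusted p = 0.00914), from 35.7, 29.8 and 24.1 FPKM on PDA to 6.15, 8.79 and 23.2 in poplar wood replicates 1, 2 and 3, a call lost without poplar wood replicate 1. The most abundant subunit, VMA4 (A14210), had log2 changes of -0.10, -0.13 and 0.06 on the 3 materials (limma adjusted p = 0.787, 0.695 and 0.886). After scaling these were 0.13, 0.46 and 0.35, so the direction on both woods turned, and none was called.

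Among 13 sodium and potassium transport genes, the potassium transporter TRK2 (A09988) rose on poplar wood by 1.33 from 28.7 ± 3.32 to 74.0 ± 10.9 FPKM (SE 0.17, limma adjusted p = 7.6e-05). The other TRK2 genes, A06895, A09268 and A13536, changed there by 0.82, 0.92 and 0.62 and were not called as deposited. A06895 fell on Chinese fir wood by 1.46 (limma adjusted p = 0.0073), a call lost after scaling. A Na(+)/H(+) antiporter gene (A15414, symbol SPAC15A10.06) fell on Chinese fir wood by 1.57 from 21.4 ± 4.12 to 6.47 ± 0.709 FPKM (SE 0.20, adjusted p = 7.43e-05). KHA1 (A07685), a K(+)/H(+) antiporter, fell on rice straw by 1.24 (adjusted p = 0.000572), and its change was -0.96 after scaling. A11393 and A18349, of the same description, changed on rice straw by -0.67 and 0.14 and were not called there. The most abundant of the 13 genes, KCH1 (A08203), had 199 ± 6.48 FPKM on PDA and 223 to 279 FPKM as means on the other materials, and it was not called. None of the 13 genes had all wood libraries below the rice straw and PDA libraries, a course found in 9.88% of all genes tested.

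The genes whose course over the 12 libraries was most like that of each gene were sought among the 4930 described genes that averaged 10 FPKM or more. Likeness was the root mean square difference between log2(FPKM + 1) profiles after each gene's own mean was taken off, so a small value means a like course and a like span. Nearest to RIM101 was DDI2 (A02397), a cyanamide hydratase by description, at 0.28. It stood at 8.53, 23.3 and 10.4 FPKM on poplar wood and at 11.3, 12.2 and 11.1 on Chinese fir wood. On rice straw it stood at 95.1, 141 and 123 FPKM, and on PDA at 173, 172 and 179.

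The next were the citrate synthase cit-1 (A15933) at 0.37, AIM9 (A05031) at 0.42, an aquaporin (A03950) at 0.50 and a putative acyl-coenzyme A synthetase (A16184) at 0.51. The median over all genes compared was 1.85. cit-1 stood at 8.19 FPKM on poplar wood and 10.2 on Chinese fir wood as group means, and at 116 on rice straw and 122 on PDA. It is a citrate synthase by description only, and its coding length was 4470 bp, against a median of 1413 bp over all genes. The aquaporin stood at 6.04 and 5.67 FPKM on the woods, 30.2 on rice straw and 103 on PDA. Like RIM101, DDI2, cit-1, AIM9, the aquaporin and the synthetase were highest in replicate 2 among the poplar wood libraries. Replicate 2 was the highest poplar wood library in 3921 of the 13974 tested genes (28.1%). DDI2 and the other neighbours were picked for likeness to RIM101 over these same libraries. Their shared peak therefore follows in large part from that choice and is not a separate observation.

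cta3 had no neighbour as close. Nearest was a probable glycosidase (A13606) at 0.73, followed by the catalase CAT1 (A14206) at 0.88, a pair of alcohol oxidases AOD1 (A05729 and A10974) at 0.976 and 1.003, and the pheromone receptor BAR2 (A16932) at 1.11. The median over all genes compared was 3.04. The glycosidase was listed at 0 in poplar wood replicate 1 and in Chinese fir wood replicate 1, and stood at 61.9, 43.8 and 51.6 FPKM on rice straw and 43.01, 37.2 and 25.5 on PDA. It shared with cta3 the higher level on rice straw than on PDA, as did both AOD1 genes, at 307 and 296 FPKM against 185 and 162. CAT1 and BAR2 had higher means on PDA than on rice straw, and the libraries of CAT1 on these materials overlapped. CAT1 is a catalase by description only, and its coding length was 4629 bp, against a median of 1413 bp over all genes.

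RIM101 and cta3 differed from each other by 1.46 on this measure, which gave RIM101 rank 9 among the neighbours of cta3 and cta3 rank 650 among those of RIM101. When likeness was taken as Pearson correlation, which ignores the span, 1 of the 5 genes stayed among the nearest for RIM101 and 2 of 5 for cta3. The profiles share libraries and depth, and the values describe these 12 libraries only.

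**Figure D5:**
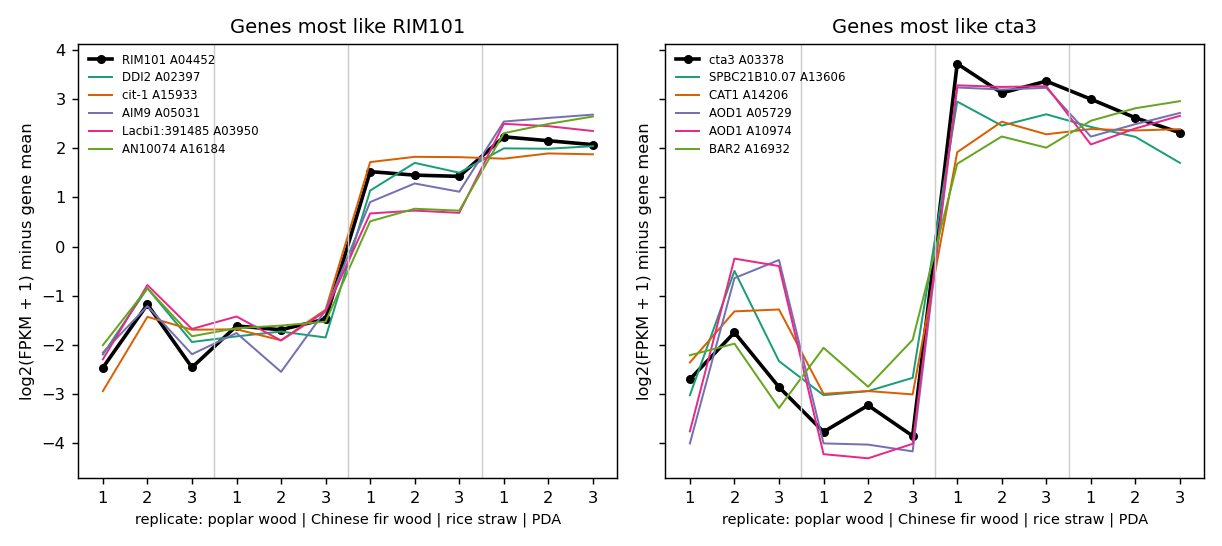
Log2(FPKM + 1) minus the gene's mean over the 12 libraries, for RIM101 (left) and cta3 (right) in black and for the 5 described genes most like each in colour. Libraries run along the x axis by replicate within each material. The lines for RIM101 lie close together, with differences of 0.28 to 0.51, and those for cta3 spread more on the woods, with differences of 0.73 to 1.11.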

How the data were processed

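The deposited table held FPKM values that the authors computed before deposit for 16059 genes in 12 libraries, with gene descriptions and symbols. The submitters' processing notes name HISAT2, HTSeq, DESeq2 and fastp. Tool versions and the genome build are not given in the sources used here. Whole reads within 0.001 were worked back from the steps of the FPKM values for 16059 genes, and 99.9% of the lengths so found were multiples of 3, so lengths are coding lengths. One limma fit with a mean-variance trend on log2(FPKM + 1) covered the 4 groups and the 13974 genes that reached 1 FPKM in 3 or more libraries. Scripts were tested on simulated data. The 2 genes, the gene lists (patterns on descriptions) and the tests were chosen with earlier results of these data known. Named genes were all tested pH signalling genes, the most abundant gene and the largest called rises and falls of each other list, and the 5 described genes most like each of the 2, and a few others were named after their values were seen. Counts of the calls of named genes leave these others out. P-values measure the spread between libraries labelled as biological replicates. SEs and p-values rest on 1 spread per gene shared by the 4 groups. Those of the FW and RS comparisons thus also carry the spread of poplar wood. Alternatives were other pseudocounts, filters and scalings, a fit of 2 groups, a replicate block, voom on the worked-back reads, and libraries left out. The fits used limma 3.58.1 in R 4.3.3, and the rest used Python 3.11.15 with pandas 2.3.3 and numpy 2.4.6.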

Additional observations from a re-analysis of the deposited data

How the results depend on the processing

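The differences of RIM101 and cta3 from PDA kept their direction under every alternative run. None of the 35 calls of named genes changed sign under the alternatives run, but of the 40 changes of named genes that were not called, 7 changed sign after scaling and 10 under at least 1 alternative, and the medians of the P-type and calcium list and of the proton and alkali cation list turned from negative to positive after scaling on all 3 materials. For RIM101, TPM gave -3.86 on FW and -0.79 on RS, and scaling -3.16 and -0.39. For cta3, a pseudocount of 5 gave -4.29 on PW and -4.86 on FW, where a pseudocount of 0.1 gave -6.97, scaling -5.80 and voom -7.06. With 1 library left out at a time, RIM101 ranged from -4.62 to -3.97 on PW, -3.81 to -3.70 on FW and -0.72 to -0.64 on RS, and cta3 from -5.43 to -4.87, -6.46 to -6.09 and 0.59 to 0.94. The cause of these shifts was not tested.

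Except for the main fit and for scaling, no counts over all genes are given here. The list counts below therefore show only how the calls of each list depend on the setting. For the pH signalling and ESCRT list, the count lower on PW was 4 with a pseudocount of 5, 12 with no fold threshold, 3 after scaling and 4 to 10 with 1 library left out. On FW it was 3, 19 and 0, with 6 to 8 when 1 library was left out and 3 without the intermediate libraries. On RS it was 8 with no fold threshold, 2 with TPM and 0 without the intermediate libraries. For the list of P-type ATPases and calcium, the counts on PW were 3 higher and 3 lower with a pseudocount of 5, 12 lower with no fold threshold, 2 lower after scaling and 3 lower without the intermediate libraries, and 5 to 7 higher and 4 to 6 lower with 1 library left out. On FW 3 were higher without MSP1 and with the srcA genes, an alternative chosen after seeing the data, and 14 lower with no fold threshold, 3 after scaling and 4 to 8 with 1 library left out. On RS 8 were higher and 8 lower with no fold threshold, 8 and 3 after scaling, 1 and 1 without the intermediate libraries, and 3 to 5 and 4 to 5 with 1 library left out.

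For proton and alkali cation transport on PW, 2 were higher with a pseudocount of 0.1 and with voom, 6 with no fold threshold and 3 after scaling, and 3 were lower with a pseudocount of 5, 10 with no fold threshold, 3 after scaling, 0 in a fit of the compared groups alone and 0 without the intermediate libraries. With 1 library left out these were 1 to 3 higher and 0 to 10 lower. On FW 2 were higher with no fold threshold and after scaling, and 3 lower with a pseudocount of 5, 13 with no fold threshold, 1 after scaling, 2 without the intermediate libraries and 4 to 9 with 1 library left out. On RS 3 were lower with a pseudocount of 0.1 and with voom, 6 with no fold threshold, 4 with TPM, 0 after scaling and 1 to 5 with 1 library left out.

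The replicate numbers did not pair the libraries: same-numbered libraries had correlations of -0.19 to 0.33 between their deviations, and 4 of 12 were closest to their own number. A replicate block gave the same counts as the fit without it, such as 7 lower on PW and 8 lower on FW for pH signalling and ESCRT. Of 35 calls of named genes, 21 also held after scaling, 19 without the intermediate libraries and 13 in every alternative. Depth limits cta3 on FW, where a library held 77 to 188 of its reads.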

Other observations

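The 3 MSP1 genes with neighbouring identifiers (A06333, A06334 and A06335) went the opposite way to cta3 and RIM101, and all 3 had every wood library above every rice straw and PDA library, as in 2.63% of all genes tested. A06334 stood at 162, 88.8 and 60.2 FPKM on poplar wood, at 66.8, 96.3 and 35.9 on Chinese fir wood, at 14.1, 10.4 and 13.5 on rice straw and at 8.57, 9.05 and 9.64 on PDA (replicates 1, 2 and 3). It rose by 3.26 on poplar wood and by 2.63 on Chinese fir wood on the log2(FPKM + 1) scale (SE 0.37 each, limma adjusted p = 3.96e-05 and 0.00014), also after scaling and without the intermediate libraries. These genes were singled out after their values were seen.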
